A study of Homo sapiens with 8 samples.

Results

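Expression of 9 genes for enzymes of serine and one-carbon synthesis was followed in HCT116, a human colorectal cancer cell line of epithelial cells that carries a ras mutation per the labels. The genes were the rows of the count table whose symbols were PHGDH, PSAT1, PSPH, SHMT1, SHMT2, MTHFD1, MTHFD1L, MTHFD2 and ALDH1L2, and all 9 were found among 35394 rows. One group of 4 libraries came from cells given PZH, the traditional Chinese medicine named Pien Tze Huang, for 24 h, and the other group of 4 from cells given DMSO, the solvent control. Both groups are the same line. No PZH dose and no duration of the DMSO exposure are given in the sources used here. The study's title ties PZH to reactive oxygen species and to slower colorectal cancer growth. The labels number the replicates without saying that they were separate cultures, so p-values measure only the spread between these libraries, which may be technical. The comparison asks how the transcripts of the serine and folate enzymes differed after PZH, and whether the cytosolic and mitochondrial enzymes differed alike.

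Cells build serine from the glycolytic intermediate 3-phosphoglycerate in the cytosol. Serine then gives up a carbon to tetrahydrofolate, the carrier form of folate, and the carbon is passed on to purines, thymidylate and methionine. Folate enzymes work in parallel in the cytosol and in mitochondria, and formate carries carbon between the compartments: mitochondrial SHMT2, MTHFD2 and MTHFD1L turn serine into formate, and cytosolic MTHFD1 takes formate up again. In growing tumour cells the mitochondrial arm usually supplies the formate, and several of these genes are known targets of the stress factor ATF4 and of MYC.

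The promoters of enzymes on both sides of this divide are shown because MTHFD1 and its mitochondrial relatives moved in opposite directions. RefSeq windows on GRCh38.p14, from 250 bases before to 50 after a transcript start, were at hand for 6 of the 9 genes: PHGDH, PSAT1, SHMT1, MTHFD1, MTHFD2 and MTHFD1L. Capitals mark matches, on either strand, to TGATGNAA (CARE, the element bound by ATF4 with C/EBP partners), CACGTG (the E-box bound by MYC with MAX) or TGACNNNGC (ARE, the element bound by NRF2 with small MAF proteins). The windows lie at chr6:150866236-150866535, chr2:74198365-74198664 and chr14:64388103-64388402, all on the plus strand, and run 5′ to 3′.
MTHFD1L: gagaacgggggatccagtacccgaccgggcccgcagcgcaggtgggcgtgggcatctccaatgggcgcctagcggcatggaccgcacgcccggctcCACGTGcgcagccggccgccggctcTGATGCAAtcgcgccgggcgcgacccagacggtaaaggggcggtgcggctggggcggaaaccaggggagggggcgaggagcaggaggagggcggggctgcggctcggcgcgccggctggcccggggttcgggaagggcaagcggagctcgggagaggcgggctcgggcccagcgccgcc
MTHFD2: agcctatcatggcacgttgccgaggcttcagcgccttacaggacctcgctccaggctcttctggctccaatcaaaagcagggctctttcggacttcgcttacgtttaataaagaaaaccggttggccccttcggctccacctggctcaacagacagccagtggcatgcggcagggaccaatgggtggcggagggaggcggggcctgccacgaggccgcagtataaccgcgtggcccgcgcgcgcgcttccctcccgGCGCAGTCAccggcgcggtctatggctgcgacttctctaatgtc
MTHFD1: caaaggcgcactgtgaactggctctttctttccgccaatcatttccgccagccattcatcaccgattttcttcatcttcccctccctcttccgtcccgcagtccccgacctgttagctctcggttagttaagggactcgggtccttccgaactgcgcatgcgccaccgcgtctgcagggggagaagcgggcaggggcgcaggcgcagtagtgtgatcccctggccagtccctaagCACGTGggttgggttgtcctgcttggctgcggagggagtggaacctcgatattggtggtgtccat

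MTHFD1L held a CARE match, spelled TGATGCAA, beginning 129 bases before the start of the printed window's transcript, and an E-box beginning 154 bases before it. The same pair of matches lay in 3 of the 4 MTHFD1L windows, which overlap and belong to different annotated starts, and the other window held no match. From the other starts, the CARE match began 90 bases before or 25 bases after, and the E-box 115 bases or 1 base before. MTHFD2 held an ARE match on the minus strand beginning 7 bases after the start, and MTHFD1 held an E-box beginning 15 bases before it. No printed match overlapped another. The windows of PHGDH, PSAT1 and SHMT1 held none of these letters. Of all 35116 windows of 300 bases in the table, 3.62% held the CARE letters, 7.26% the E-box and 13.3% the ARE letters. A match describes the sequence and was not tested for binding.

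The libraries held 18144117 to 18868057 counts in PZH and 19288836 to 19917571 in DMSO. Levels are CPM, counts relative to library size, scaled with TMM factors, and on this scale 3 counts corresponded to 0.170 to 0.182 CPM in PZH and 0.137 to 0.143 CPM in DMSO. Epithelial identity was checked with 7 markers: 6 averaged at least 1 CPM, and VIL1 had 1 count in PZH and 4 in DMSO. Their summed level was 2512 to 3017 CPM in PZH and 3501 to 3585 CPM in DMSO, with KRT8 1.91-fold lower and CDH1 3.12-fold higher in PZH. Markers of endothelial cells summed to at most 0.906 CPM in PZH and 1.44 CPM in DMSO, and those of immune cells to at most 1.93 CPM in PZH and 2.83 CPM in DMSO. Those of fibroblasts summed to 18.7 to 22.2 CPM in PZH and 10.3 to 12.8 CPM in DMSO, nearly all from COL1A1, with COL1A2 at 0 counts in all 8 libraries. The part of these marker levels in the results was not tested. PZH libraries spread more than DMSO libraries, with a chi-square per degree of freedom of 4.03 to 12.3 between pairs of PZH replicates and 2.39 to 2.81 between pairs of DMSO replicates.

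In PZH cells the serine synthesis genes PHGDH, PSAT1 and PSPH and the mitochondrial folate genes MTHFD2 and MTHFD1L were higher, the cytosolic folate genes SHMT1 and MTHFD1 and the mitochondrial SHMT2 were lower, and ALDH1L2 did not pass the test. All 9 passed the filter on low counts. Under the quasi-likelihood F test of edgeR, with p-values adjusted by the Benjamini-Hochberg method over all 15006 genes tested, 5 of 9 were called higher and 3 lower at an adjusted p of 0.05, where 39.3% of all genes tested were called higher and 40.9% lower. With 9 genes, these counts lie near the shares over the whole transcriptome and are no result about the enzymes. MTHFD2 differed by at least 2-fold upward, as did 15.8% of all genes, and SHMT1 and MTHFD1 downward, as did 18.9%. The groups did not overlap for 8 of the 9 enzymes, and for 75.0% of all genes tested. In bulk RNA, fewer cells of a kind and less RNA per cell cannot be told apart.

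**Figure D1:**
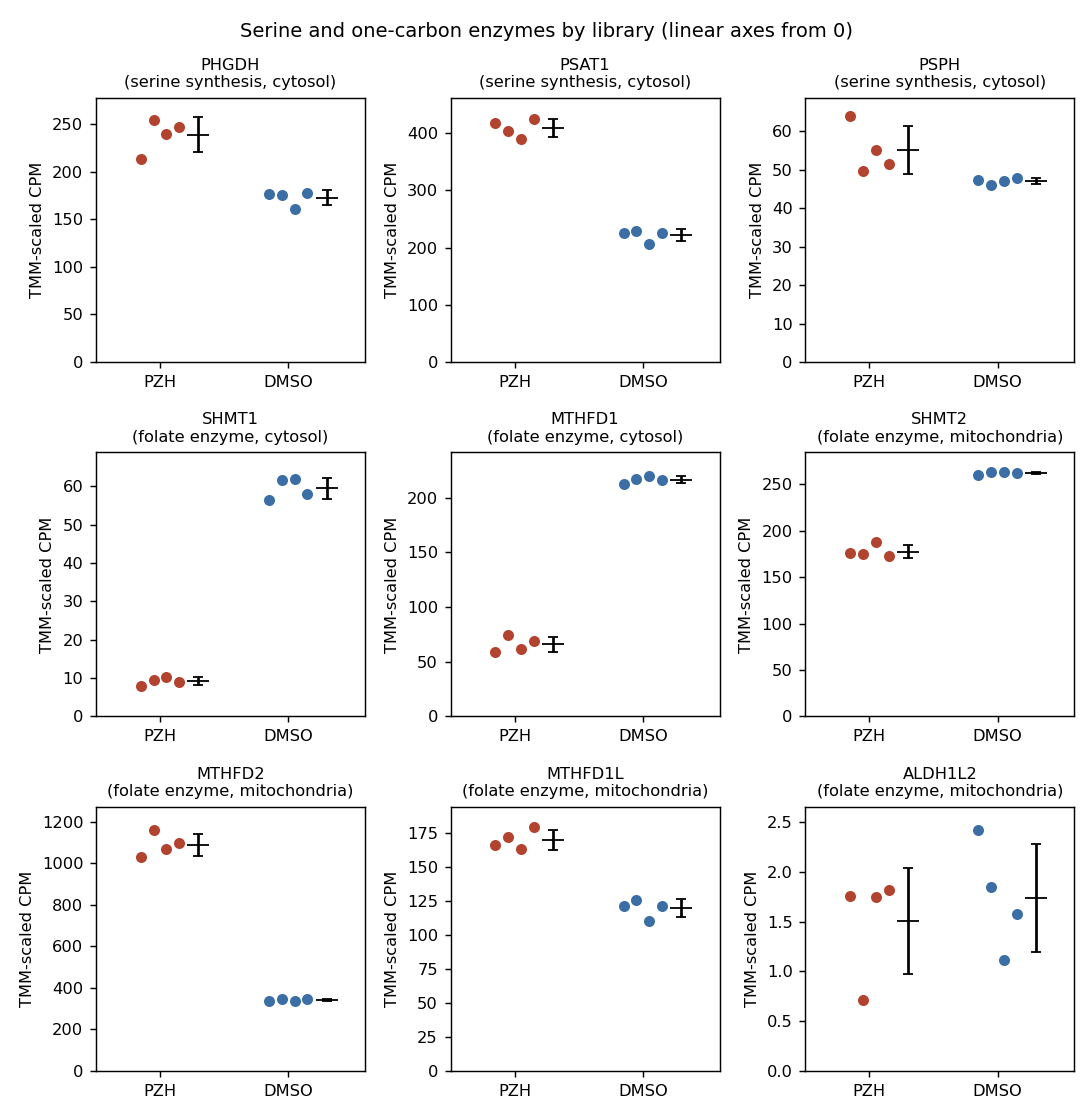
Each panel plots the TMM-scaled CPM of 1 enzyme gene in the 4 PZH and 4 DMSO libraries (points), with the mean and SD beside them (bar), on a linear axis from 0. The groups are apart in every panel but that of ALDH1L2; MTHFD2 has the highest CPM, not corrected for transcript length, at 1031 to 1159 CPM in PZH and 338 to 348 CPM in DMSO.

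PHGDH, the dehydrogenase that draws 3-phosphoglycerate into serine synthesis, measured 213, 255, 240.3 and 248 CPM in the 4 PZH libraries and 177, 176, 161 and 178 CPM in the 4 DMSO libraries, in replicate order. The lowest PZH library lay above the highest DMSO library. It averaged 239 ± 18.3 CPM in PZH and 173 ± 7.91 CPM in DMSO (SD, n = 4 each), 1.38-fold higher, with a log2 fold change of 0.47 ± 0.054 (SE) and an adjusted p of 4.53e-08.

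PSAT1, the transaminase of the next step, which takes its amino group from glutamate, had the steepest rise of the serine synthesis genes. Its level was 418, 405, 389 and 424 CPM in the PZH libraries and 226, 228, 207 and 226 CPM in the DMSO libraries. Every PZH value lay well above every DMSO value. The mean was 409 ± 15.6 CPM in PZH and 222 ± 10.01 CPM in DMSO, 1.84-fold higher (log2 fold change 0.88 ± 0.048, edgeR adjusted p = 9.17e-14).

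PSPH, the phosphatase that releases free serine, differed least of the serine synthesis genes. It stood at 63.9, 49.7, 55.2 and 51.5 CPM in PZH and at 47.4, 46.0, 47.0 and 47.9 CPM in DMSO. PZH replicate 1 was the highest of all, and the lowest PZH library was only slightly above the highest DMSO library. The log2 fold change was 0.23 ± 0.065 (1.17-fold higher, edgeR adjusted p = 0.00316). This call rested on the scaling: without scaling factors, which moved the median of all genes by -0.26 on the log2 scale, the value was -0.03 and did not pass (adjusted p = 0.721). The other 7 called enzymes kept their direction and their call without scaling factors. The size of the modest rises depended on scaling too: the log2 fold changes of PHGDH and MTHFD1L shrank to 0.20 and 0.25.

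The steps of serine synthesis differed unequally. The count ratio of PSAT1 to PHGDH was 1.59 to 1.96 in PZH libraries and 1.27 to 1.297 in DMSO libraries. That of PSPH to PSAT1 was 0.121 to 0.153 in PZH and 0.201 to 0.227 in DMSO. Such ratios do not depend on library scaling, and neither pair of ranges overlapped; that of PSPH to PHGDH, at 0.195 to 0.300 in PZH and 0.261 to 0.292 in DMSO, did overlap.

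The cytosolic folate enzymes had the largest falls of the 9 genes. SHMT1, the cytosolic hydroxymethyltransferase that splits serine into glycine and a folate-bound carbon, had 141, 162, 171 and 148 counts in PZH and 1238, 1304, 1330 and 1213 counts in DMSO. The groups were far apart, at 7.98 to 10.3 CPM in PZH and 56.5 to 61.9 CPM in DMSO. SHMT1 fell 6.47-fold, with a log2 fold change of -2.69 ± 0.075 (edgeR adjusted p = 4.49e-19), and only 4.65% of all genes tested had a larger change in either direction.

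MTHFD1, the cytosolic enzyme that attaches formate to tetrahydrofolate and interconverts the folate forms, stood at 59.2, 74.3, 61.6 and 69.2 CPM in PZH and at 213, 217, 219.7 and 216 CPM in DMSO. Each PZH library lay far below every DMSO library. MTHFD1 fell 3.28-fold, to 66.1 ± 6.96 CPM in PZH against 216 ± 2.89 CPM in DMSO (log2 fold change -1.71 ± 0.058, edgeR adjusted p = 1.25e-17). The ratio of SHMT1 to MTHFD1 counts was 0.129 to 0.168 in PZH and 0.266 to 0.284 in DMSO, so the fall of SHMT1 was the larger on a measure free of library scaling.

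The mitochondrial folate genes were not uniform. MTHFD2, the mitochondrial dehydrogenase and cyclohydrolase that is high in embryos and tumours and low in most adult tissues, stood at 1031, 1159, 1068 and 1100 CPM in PZH and at 338, 348, 338 and 345 CPM in DMSO. All PZH libraries were about equally high. MTHFD2 rose 3.18-fold (log2 fold change 1.67 ± 0.050, edgeR adjusted p = 1.57e-18), and its share of the counts of all 9 enzymes was 48.3% to 50.4% in PZH and 23.4% to 24% in DMSO.

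MTHFD1L, the mitochondrial synthetase that releases formate from the carrier, stood at 166, 172, 163 and 179.7 CPM in PZH and at 121, 125, 110.2 and 121 CPM in DMSO. The groups did not overlap. It rose 1.42-fold, to a mean of 170.1 ± 7.34 CPM in PZH against 119.5 ± 6.53 CPM in DMSO (log2 fold change 0.51 ± 0.049, edgeR adjusted p = 2.23e-09).

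SHMT2, the mitochondrial hydroxymethyltransferase that opens this route, went the other way. It stood at 176, 175, 188 and 172 CPM in PZH and at 260.4, 264, 263 and 262 CPM in DMSO. Every PZH library lay below every DMSO library. SHMT2 fell 1.48-fold, to 178 ± 6.76 CPM in PZH against 262 ± 1.35 CPM in DMSO (log2 fold change -0.56 ± 0.044, edgeR adjusted p = 5.68e-11). Relative to SHMT2, MTHFD2 counts stood at a ratio of 5.70 to 6.63 in PZH and 1.29 to 1.32 in DMSO. Relative to MTHFD1L, they stood at 6.12 to 6.75 in PZH and 2.77 to 3.07 in DMSO.

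ALDH1L2, the mitochondrial enzyme that oxidises formyl-tetrahydrofolate to carbon dioxide and makes NADPH, was close to the limit of these libraries. It had 31, 12, 29 and 30 counts in PZH and 53, 39, 24 and 33 counts in DMSO. The groups overlapped, and PZH replicate 2 stood below the other 7 libraries. The log2 fold change was -0.21 with a 95% interval of -0.82 to 0.41 (edgeR adjusted p = 0.527). Without DMSO replicate 1 the value was -0.01 (edgeR adjusted p = 0.977), and without PZH replicate 2 it was 0.03 (edgeR adjusted p = 0.916).

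Ratios of the mitochondrial to the cytosolic enzyme were compared within each library for steps that both compartments share. SHMT2 over SHMT1 was 22.0, 18.3, 18.2 and 19.2 in PZH and 4.61, 4.27, 4.24 and 4.53 in DMSO, although both genes fell. MTHFD2 over MTHFD1 was 17.4, 15.6, 17.4 and 15.9 in PZH and 1.59, 1.602, 1.54 and 1.59 in DMSO. MTHFD1L over MTHFD1 was 2.80, 2.31, 2.65 and 2.59 in PZH and 0.569, 0.578, 0.502 and 0.561 in DMSO. In all 3 ratios the balance stood further towards the mitochondrial enzyme in every PZH library than in any DMSO library. The groups did not overlap in CPM for 75.0% of all genes tested, and ratios of gene pairs outside the pathway were not computed. The separation alone is therefore no result about the compartments. MTHFD1L counts were above those of MTHFD1 in all PZH libraries and below them in all DMSO libraries.

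The ratios were 4.38-fold higher in PZH for SHMT2 over SHMT1, 10.5-fold for MTHFD2 over MTHFD1 and 4.68-fold for MTHFD1L over MTHFD1, from differences of 2.13, 3.39 and 2.23 in mean log2 ratio. Their SDs on the log2 scale were 0.130, 0.0837 and 0.116 in PZH and 0.0596, 0.0256 and 0.0928 in DMSO (n = 4 each). Each had a two-sided exact permutation p of 0.0286, the smallest that 70 assignments of 8 libraries allow, and 0.0286 after Benjamini-Hochberg adjustment over the 3 ratios. The last pair share MTHFD1 and are not independent. Where groups do not overlap, this permutation test can give only its smallest p, so it restates the separation.

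**Figure D2:**
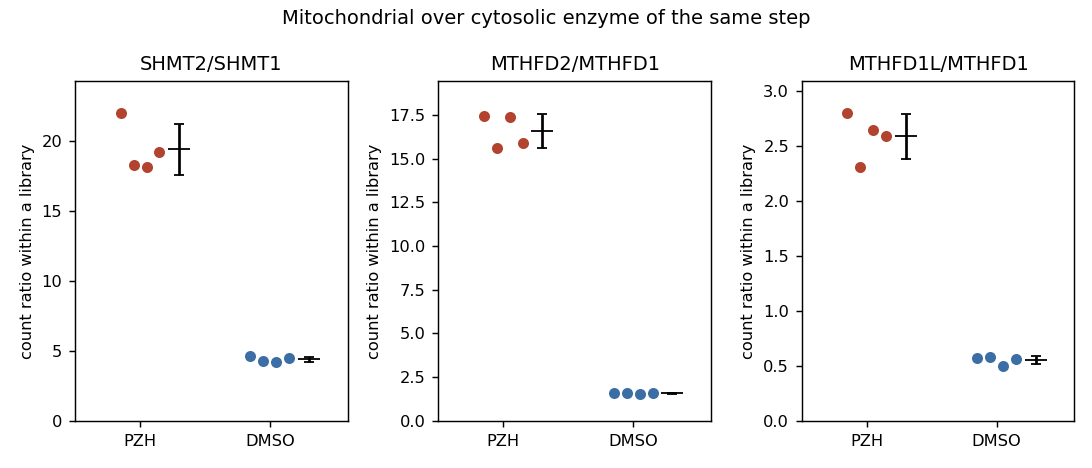
Each panel plots the count ratio of a mitochondrial to a cytosolic enzyme gene in the 4 PZH and 4 DMSO libraries (points) with the mean and SD beside them (bar), on a linear axis from 0. All PZH points lie above all DMSO points, with means of 19.4 and 4.41, 16.6 and 1.58, and 2.59 and 0.553 in PZH and DMSO.

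Levels of different genes were compared per kilobase of merged coding-transcript exons in GENCODE v29, which may not be the annotation behind the counts. In PZH the order of mean level was MTHFD2 (245 ± 12.1 CPM per kb), PSAT1 (187 ± 7.14), PHGDH (84.6 ± 6.47), SHMT2 (53.6 ± 2.04), MTHFD1L (37.6 ± 1.62), PSPH (22.9 ± 2.62), MTHFD1 (8.73 ± 0.920), SHMT1 (2.78 ± 0.299) and ALDH1L2 (0.193 ± 0.0684). No neighbours in that order overlapped between libraries. In DMSO it was PSAT1 (101 ± 4.57 CPM per kb), SHMT2 (79.2 ± 0.408), MTHFD2 (76.8 ± 1.11), PHGDH (61.2 ± 2.80), MTHFD1 (28.6 ± 0.382), MTHFD1L (26.5 ± 1.44), PSPH (19.5 ± 0.338), SHMT1 (17.9 ± 0.818) and ALDH1L2 (0.223 ± 0.0697), also without overlap between neighbours. Between DMSO libraries, however, SHMT2 and MTHFD2, MTHFD1 and MTHFD1L, and PSPH and SHMT1 each came within 1 CPM per kb. MTHFD2 thus ranked 1 in PZH and 3 in DMSO, and MTHFD1 ranked 7 in PZH and 5 in DMSO. These orders rest on the exon lengths used, while the changes within each gene do not.

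**Figure D3:**
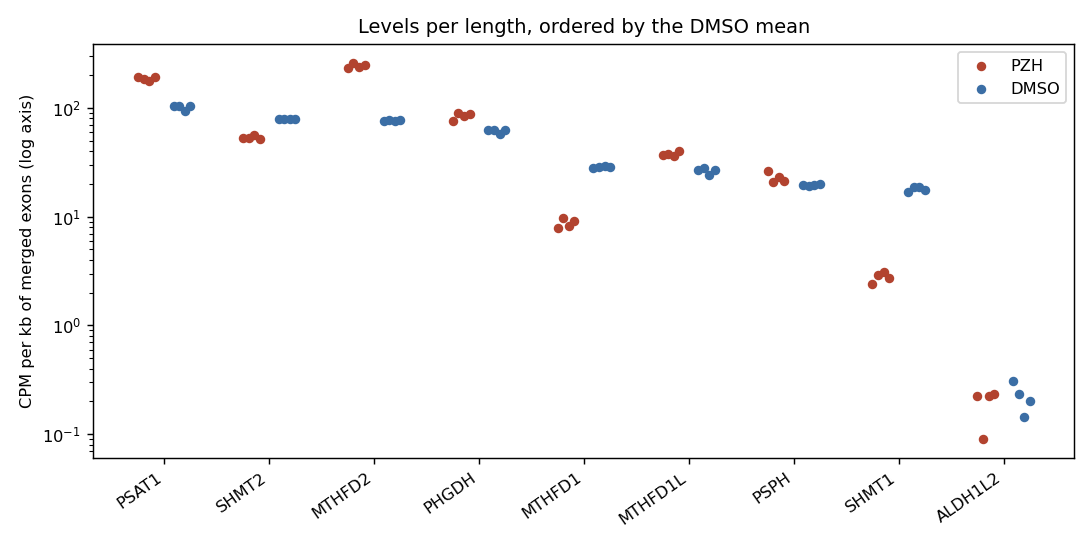
Points give each library's level per kilobase of merged exons on a log axis for the 9 enzyme genes, ordered by their DMSO mean, with PZH left of DMSO. MTHFD2 reaches 231 to 260 CPM per kb in PZH and 75.8 to 78.1 in DMSO, and SHMT1 2.41 to 3.11 in PZH and 17.04 to 18.7 in DMSO.

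Some of these genes have near-identical copies, and the sources used here do not say how reads that match several places were counted. PSPHP1, a pseudogene of PSPH, had 193 to 245 counts in PZH and 137 to 201 in DMSO, beside 842 to 1129 PSPH counts in PZH and 972 to 1038 in DMSO, so the level of PSPH is uncertain. With the PSPHP1 counts added, an alternative chosen after seeing the data, the log2 fold change of PSPH was 0.29 (edgeR adjusted p = 6.60e-05). MTHFD2P7 had 18 to 63 counts in PZH and 9 to 31 in DMSO, beside 7210 or more for MTHFD2 in each library. MTHFD1P1 and PSAT1P3 had at most 5 and 3 counts in a library, and MTHFD2P6 had none.

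Genes around the pathway were taken from 7 lists of 58 genes, chosen with earlier results of these data known. The listed glycolytic genes, GAPDH, PGK1, PGAM1, ENO1 and PKM, were called lower in 5 of 5 cases, where 40.9% of all genes tested were. Their median log2 fold change was -1.38, where that of all genes tested was -0.02. Of these, PGK1 and PGAM1 act on 3-phosphoglycerate itself. PGK1, which makes 3-phosphoglycerate, averaged 252 ± 7.39 CPM in PZH and 674 ± 27.3 CPM in DMSO, a 2.68-fold fall. PGAM1, which competes with PHGDH for it, averaged 131 ± 4.23 CPM in PZH and 545 ± 9.54 CPM in DMSO, a 4.16-fold fall. The later glycolytic genes PKM and ENO1 fell 2.61-fold and 1.89-fold. So PHGDH stood higher while the genes that make and use its substrate stood lower.

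Genes that carry or use serine and glycine were mixed. Of 8 tested, 2 were called higher and 5 lower, beside 39.3% higher and 40.9% lower among all genes tested, and their median log2 fold change was -0.24. SFXN1, the mitochondrial serine carrier, averaged 139 ± 7.34 CPM in PZH and 201 ± 7.89 CPM in DMSO (1.44-fold lower, edgeR adjusted p = 8.99e-10), and its relative SFXN2 averaged 2.50 ± 0.620 CPM in PZH and 18.8 ± 1.75 CPM in DMSO. CTH, which makes cysteine from cystathionine, and SDSL, a serine dehydratase-like gene, rose 2.68-fold and 2.63-fold. In glycine cleavage, the mitochondrial system that turns glycine into a folate-bound carbon, 3 of 3 tested genes were called lower, where 40.9% of all genes were: GLDC fell 3.47-fold, GCSH 2.08-fold and DLD, which also serves other dehydrogenases, 1.31-fold.

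The remaining folate genes were called lower in 9 of 13 cases and higher in 3, where 40.9% of all genes tested were lower and 39.3% higher, with a median log2 fold change of -0.91. Thymidylate synthase TYMS, which spends methylene-tetrahydrofolate on DNA synthesis, averaged 14.8 ± 1.304 CPM in PZH and 152 ± 4.97 CPM in DMSO (10.2-fold lower, edgeR adjusted p = 3.34e-22). GGH, which trims the glutamate tail of folates, fell 5.06-fold and the folate carrier SLC19A1 fell 2.96-fold. The 3 that rose were picked out after their values were seen: MTHFD2L, a mitochondrial relative of MTHFD2 (1.55-fold), SLC25A32, a mitochondrial folate carrier (1.41-fold), and FPGS (1.09-fold, edgeR adjusted p = 0.0497), whose call turned to lower when scaling factors were left out (-0.13 on the log2 scale, edgeR adjusted p = 0.0361) and was lost in 5 of the 8 fits that left out 1 library (without PZH replicate 3 or 4, or DMSO replicate 1, 2 or 4; adjusted p of 0.0877 to 0.170).

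The methionine cycle receives carbon from folate. Of 7 tested genes on its list, 3 were called higher and 4 lower, near the 39.3% and 40.9% of all genes tested. Those higher were MTRR and the AHCY-like genes AHCYL1 and AHCYL2, whose place in the cycle was not examined. Without scaling factors 1 was called higher, since MTRR (edgeR adjusted p = 0.0846) and AHCYL2 (edgeR adjusted p = 0.170) lost their calls. MAT2A, which makes the methyl donor S-adenosylmethionine, averaged 61.0 ± 4.97 CPM in PZH and 320.0 ± 15.3 CPM in DMSO (5.24-fold lower, edgeR adjusted p = 2.44e-20). AHCY and methionine synthase MTR fell 2.46-fold and 1.89-fold, and AHCYL1 rose 1.36-fold. Of the 6 genes of purine synthesis, a main consumer of formyl-tetrahydrofolate, 5 were called lower and 1 higher, where 40.9% of all genes tested were lower and 39.3% higher, and PPAT lost its call without PZH replicate 3 (edgeR adjusted p = 0.0529). PAICS, PFAS and ATIC fell 3.43-fold, 2.38-fold and 1.48-fold, whereas GART, one of the enzymes that uses the folate itself, rose 1.57-fold, averaging 417 ± 19.4 CPM in PZH and 265 ± 3.06 CPM in DMSO. GAPDH, PGAM1, ENO1 and GCSH have processed pseudogenes too, and their levels are uncertain to that extent.

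**Figure D4:**
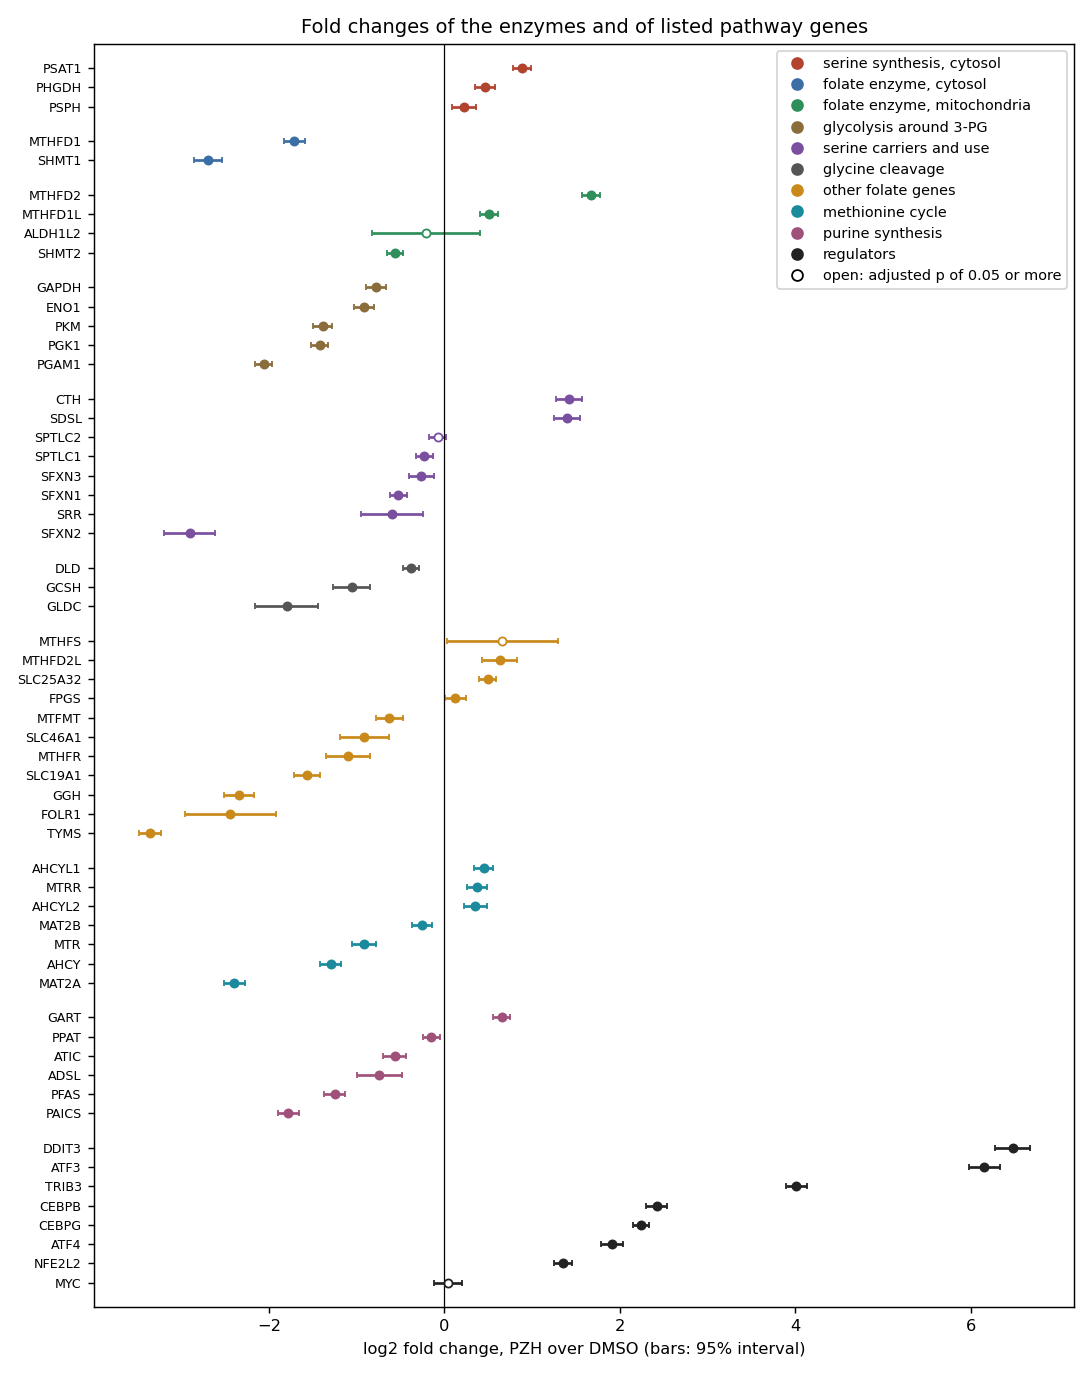
Points give the log2 fold change of PZH over DMSO for the 9 enzymes and the tested genes of the 7 lists that are reported here, in blocks, with 95% intervals as bars, and open points did not pass an adjusted p of 0.05. PSAT1, PHGDH, PSPH, MTHFD2 and MTHFD1L lie right of 0, and SHMT1 lies at -2.69 among the enzymes, near GGH and FOLR1 of the other folate genes.

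Of 8 regulators linked to these genes or to the stress response, 7 were called higher, where 39.3% of all genes tested were, and MYC was not called. The list was chosen with earlier results of these data known, so this count is no result about regulators. ATF4, the factor known to drive PHGDH, PSAT1 and MTHFD2, averaged 1304 ± 91.9 CPM in PZH and 347 ± 18.9 CPM in DMSO (3.76-fold higher, edgeR adjusted p = 2.21e-18). Its partners CEBPG and CEBPB rose 4.72-fold and 5.35-fold, the NRF2 gene NFE2L2 rose 2.55-fold, and the stress-induced ATF3, DDIT3 and TRIB3 rose 71.0-fold, 88.9-fold and 16.1-fold. Beside these, MTHFD2 rose 3.18-fold, PSAT1 1.84-fold, MTHFD1L 1.42-fold, PHGDH 1.38-fold and PSPH 1.17-fold. SHMT2, MTHFD1 and SHMT1 fell 1.48-fold, 3.28-fold and 6.47-fold, and ALDH1L2 was not called. The part of these regulators in the enzyme levels was not tested. MYC averaged 249.998 ± 40.1 CPM in PZH and 242 ± 10.8 CPM in DMSO. Leaving out scaling factors turned MYC to a lower call (-0.22 on the log2 scale, edgeR adjusted p = 0.00638), and leaving out PZH replicate 1 to a higher one (0.16, edgeR adjusted p = 0.0125).

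Profiles over the 8 libraries were compared by the Euclidean distance of log2 CPM, centred on the DMSO mean, over 11288 genes that averaged 2 or more on that scale. The 3 genes nearest to PHGDH were EIF4A2, AC007318.1 and VDAC2, at distances of 0.109, 0.127 and 0.128. The 3 nearest to MTHFD2 were ATF6, ASB1 and SIRT7, at distances of 0.126, 0.130 and 0.152. Their log2 fold changes were 0.45 to 0.48 and 1.63 to 1.72, beside 0.47 for PHGDH and 1.67 for MTHFD2. With 2 groups, such a distance mostly restates the difference between them.

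**Figure D5:**
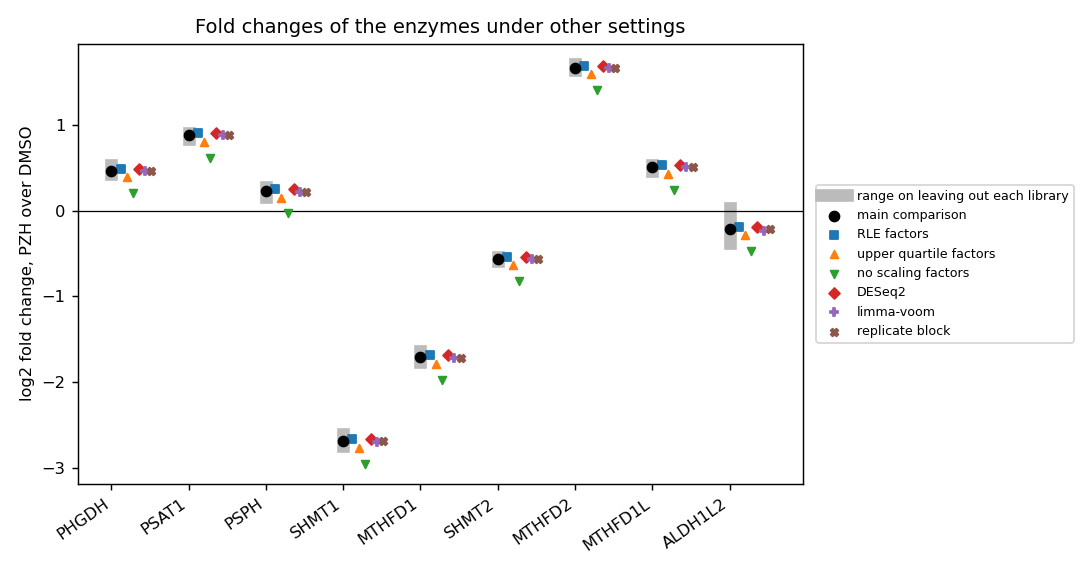
For each enzyme gene the black point is the log2 fold change of PZH over DMSO, the grey bar the range on leaving out each library in turn, and the other symbols other scalings or tests. Without scaling factors all 9 values move down, PSPH to -0.03, while SHMT1, MTHFD1 and SHMT2 stay below 0 and PHGDH, PSAT1, MTHFD2 and MTHFD1L above it.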

How the data were processed

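Per the labels, poly(A) RNA was selected with beads from Trizol-extracted RNA and made into libraries with an NEBNext Ultra kit. The submitters' processing notes name DESeq 1.28.0, StringTie 1.3.3b, HISAT2 2.1.0 and FastQC 0.11.5; the step each served, the build and the use of strand are not stated in the sources used here. Raw counts per gene symbol, not normalized, were deposited by the authors, with 1 column for each of 8 libraries. The table has 35394 rows, 25 of them with names written as dates.

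Genes passing edgeR's filterByExpr (defaults: minimum count 10, minimum total 15) entered the library sizes, were scaled with TMM and were tested by the quasi-likelihood F test, PZH over DMSO, with group as the only term and Benjamini-Hochberg adjustment over 15006 genes. Standard errors are the absolute log2 change over the root of F, and 95% intervals use the degrees of freedom of that test. Ratios had 0.5 added to each count before log2. The fit was tested on simulated data with few changed genes, as many up as down, and a single dispersion for all genes. In the real data 80.3% of genes tested were called, so that test does not check the scaling under such conditions. Tools were edgeR 4.0.16, DESeq2 1.42.0 and limma 3.58.1 in R 4.3.3, and Biopython 1.88 in Python 3.11.15.

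The enzymes, the lists and the tests were chosen with earlier results of these data known. Named were all 9 enzymes, all regulators, of each other list up to 4 called genes with the smallest p, the 3 genes nearest to PHGDH and to MTHFD2, pseudogenes of the enzymes by symbol, and the epithelial markers. A gene that this rule names among the other folate genes is not reported here, though it stays in the counts and median of that list. PCR copies are not independent molecules, so floors of 3 counts cover counting error only. Tried besides were scaling by upper quartile, by RLE or not at all, testing every gene or those reaching 1 CPM in 4 libraries, limma-voom, DESeq2, a replicate block, an adjusted p of 0.01, 5 added to counts in ratios, leaving out each library, and adding pseudogene counts.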

Additional observations from a re-analysis of the deposited data

Results flagged for a closer look

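A library stood far from the other 3 of its group in 3 of 24 sets of 4 values, by the gap to its nearest neighbour over the range of the group; chance gives about 1 in 20. PHGDH and PSAT1 were both lowest in DMSO replicate 3, at 161 CPM and 207 CPM, with a gap of 0.878 and 0.875 of the range. MTHFD1L was lowest there too, at 110.2 CPM, but was not flagged. Without DMSO replicate 3 the log2 fold changes of PHGDH, PSAT1 and MTHFD1L were 0.43, 0.84 and 0.47. These were their smallest values on leaving out 1 library, and each gene was still called higher. ALDH1L2 was lowest in PZH replicate 2, at 0.709 CPM from 12 counts, with a gap of 0.941.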

How the results depend on the processing

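Of the 9 enzymes, PHGDH, PSAT1, MTHFD2, MTHFD1L, SHMT1, MTHFD1 and SHMT2 kept their direction and call under every alternative run. Without scaling factors, the log2 fold change of PSPH was -0.0297 and was not called (edgeR adjusted p = 0.721). That alternative shifted the median of all genes by -0.26. TMM factors were 0.896 to 0.949 in PZH and 1.086 to 1.102 in DMSO libraries, and which scaling is right for PSPH was not tested. Without scaling factors 4473 genes were called higher and 7670 lower, 36.8% higher among calls, against 5901, 6143 and 49.0% with TMM. Leaving out each library gave log2 fold changes of 0.17 to 0.28 for PSPH, 0.43 to 0.54 for PHGDH and -0.38 to 0.03 for ALDH1L2, which was never called. No shared deviation of same-numbered PZH and DMSO libraries was detected (correlations of 0.000736 to 0.0113), and not every library correlated best with its own number. The labels state no pairing, and these correlations cannot exclude one. With the replicate number as a block, 5889 genes were called higher and 6125 lower, and no enzyme's call changed. The ratios of SHMT2 to SHMT1, MTHFD2 to MTHFD1 and MTHFD1L to MTHFD1 had the same differences of 2.13, 3.39 and 2.23 in same-numbered pairs, where an exact sign-flip permutation p is 0.125 and 4 pairs allow no smaller one. Among the lists, counts moved by over 1.5 times in 3 cases: 1 gene of the methionine cycle was called higher and 1 regulator lower without scaling factors, and 1 gene of glycine cleavage was called higher with no filter. Genes that carry or use serine called higher numbered 3, against 2, with no filter and on leaving out each library, fits in which more low genes can enter. Depth limits ALDH1L2, with 102 counts in all in PZH and 149 in DMSO.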
